A study of Mus musculus with 4 samples.

Results

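Bone marrow of mice bearing a PyMT-B6 mammary tumor was compared with marrow of control mice across every cell class that the sorted pools held. One single-cell library was made from each marrow, the control marrow library (CBM) and the tumor-bearing marrow library (TBM). A barcode, which marks the RNA of 1 droplet, was kept when it had at least 1000 detected genes and at most 10% of its unique molecular identifiers (UMIs, each marking 1 captured mRNA molecule) on mitochondrial genes. This rule kept 3497 barcodes of CBM and 4340 of TBM, 7837 in all, out of 16261 kept by the same rule in the 4 libraries of the series, which also hold control and tumor-bearing spleen. Both groups were C57BL/6J mice of 8 to 16 weeks. The group labelled Tumor-bearing carried PyMT-B6, a mammary carcinoma line derived from a mouse that expresses the polyoma middle T oncogene under the mouse mammary tumor virus promoter, and the group labelled Control did not. How many mice were pooled into a library is not given in the sources used here.

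Before loading, lineage-positive cells were depleted with magnetic beads. The rest were sorted into c-Kit+ Sca-1+ and c-Kit+ Sca-1- gates of CD45+ cells and into CD45- gates set on CD31 and CD51, and the gates were combined at equal ratios. A share given here is therefore a share of that pool and not of whole marrow. With 1 library per group there is no replicate, and no test of tumor against control was possible; tumor, mouse and library cannot be told apart. Intervals are 95% counting intervals on UMIs or barcodes, which cover counting error only and not the spread between mice.

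Hematopoietic stem and progenitor cells (HSPCs) divide into progenitors of every blood lineage, and granulocyte-monocyte progenitors (GMPs) are the step from which neutrophils and monocytes arise. Solid tumors that secrete hematopoietic cytokines such as G-CSF are known to push this system toward myeloid output. Neutrophil precursors then fill their granules in a fixed order, with myeloperoxidase and elastase (Mpo, Elane) in progenitors and lactoferrin, cathelicidin and neutrophilic granule protein (Ltf, Camp, Ngp) later. STAT3 acts downstream of the G-CSF and IL-6 family receptors and induces its own feedback inhibitor, Socs3.

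The kept barcodes held 58.1% of the 101811035 UMIs of CBM and 62.9% of the 135207987 UMIs of TBM, with medians of 13738 and 14386 UMIs per barcode, and 9 kept barcode sequences occurred in both libraries. The mitochondrial limit removed 564 and 730 barcodes. Levels are UMIs scaled to 1000000 UMIs (CPM) of the pool or class, and a ratio is TBM over CBM on the log2 scale. A gene was called when it differed at least 2-fold, had a mean of at least 20 CPM over both libraries and had a counting interval off 0. Messages of the sorting antigens were present at like levels: Kit at 149.5 and 109.2 CPM, Ptprc (CD45) at 148.8 and 125.7, Cd34 at 153.9 and 128 and Ly6a (Sca-1) at 15.6 and 17.5. Pecam1 (CD31) stood at 51.5 and 45.2 CPM, Itgav (CD51) at 11.6 and 10.8, and Pdgfra had no UMI in CBM and 1 in TBM. Of the messages of the injected tumor's lineage, Epcam at 0.372 and 0.529 CPM and Krt8 at 0.609 and 0.659 were near 0. The 10 mammary epithelial genes of a list read below summed to 31.8 CPM in CBM and 25.2 in TBM, with 1 of them at a mean of at least 20 CPM. Reads from RNA free in the suspension were measured in barcodes of at most 100 UMIs, and this free RNA held 139.7 CPM of S100a9 in CBM and 2174 CPM in TBM, a level that touches every S100a9 and S100a8 value below.

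Clustering on 121 marker genes gave 19 clusters, of which 13 were named from their markers and 6 were left unnamed. The names cover HSPC-like, GMP-like, neutrophil precursor-like, monocyte-like, mast or basophil-like, megakaryocyte-like, erythroid-like and B lineage-like barcodes. No cluster carried a dendritic, macrophage, eosinophil, T or NK, endothelial or stromal name, which says nothing of such cells inside other clusters. The summed level of the 10 stromal markers was 12.2 CPM in CBM and 17.1 in TBM, with 4 and 2 of them at 0, and that of the 8 endothelial markers was 62.9 and 51.2 CPM with none at 0. Few kept barcodes therefore carried markers of the cells that the CD45- gates were set for. A second clustering on 3000 variable genes held a single cluster with endothelial and stromal genes (Fabp4, Cxcl12, Cldn5), with 13 barcodes of CBM and 3 of TBM, and one led by the eosinophil granule genes Prg2, Epx and Prg3, with 53 and 56.

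The class make-up of the pools differed most along the granulocyte line. GMP-like barcodes made up 6.49% of CBM (227 barcodes, interval 5.70 to 7.36%) and 18.1% of TBM (784 barcodes, 16.9 to 19.2%), a 2.78-fold higher share. One of their clusters was led by Cebpe, Ms4a3 and Fkbp11 and the other by Wfdc21, Elane and Trem3. Cebpe, a marker of the neutrophil precursor list, is among the leading genes of both. GMP-like is thus a name from markers, and whether these barcodes could also give monocytes was not tested. Neutrophil precursor-like barcodes, led by Ngp, Camp, Retnlg and Ltf, numbered 3 in CBM, 0.0858%, and 61 in TBM, 1.41% (1.08 to 1.80%). Monocyte-like barcodes went from 10.9% (381) to 5.25% (228), erythroid-like from 12.6% (441) to 6.89% (299), B lineage-like from 7.21% (252) to 3.96% (172) and HSPC-like from 19.96% (698) to 15.1% (654). The monocyte-like share leaves out unnamed clusters with monocyte markers. The one led by Cd74 and H2-Aa, with 8 of 8 monocyte markers up, went from 6.49% (227) to 1.43% (62). The one led by Ly86 and Ly6c2, with 2 of 8 up, went from 7.01% (245) to 10.6% (462). Megakaryocyte-like barcodes were 4.89% (171) and 6.41% (278). The mast or basophil-like share was 5.43% (190) in CBM and 7.49% (325) in TBM, but its direction turned when classes were built on variable genes, to 13.2% and 5.51%. In that clustering, barcodes led by Ccl3 and Ccl4 fell into 2 clusters that both had 8 of 8 mast or basophil markers up, and the one with 412 CBM and 11 TBM barcodes was named mast or basophil-like while the one with 1 and 208 stayed unnamed. Not counted in the 7.49% is an unnamed marker-gene cluster of 4 CBM and 98 TBM barcodes, led by Fcer1a, Mcpt8 and Prss34, with 5 mast or basophil markers among its 10 leading genes. It was left unnamed after its values were seen, since its TBM profile correlated with that of free RNA at r = 0.949 across genes of at least 50 CPM there, on the log2 scale, against 0.687 to 0.920 in the other unnamed clusters. Also left out of the mast or basophil-like share is the unnamed cluster led by Ccl6, Ccl4 and Ccl3, with 6 of 8 mast or basophil markers up. That cluster held 9.61% (336) of CBM and 4.22% (183) of TBM barcodes. With it counted, the share would be lower in TBM than in CBM. Unnamed clusters held 32.4% and 35.5%. The depletion and the equal mixing of gates both bear on these shares, and their part was not tested. In the plot of class shares, the intervals of the 2 libraries are apart for every named class.

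**Figure D1:**
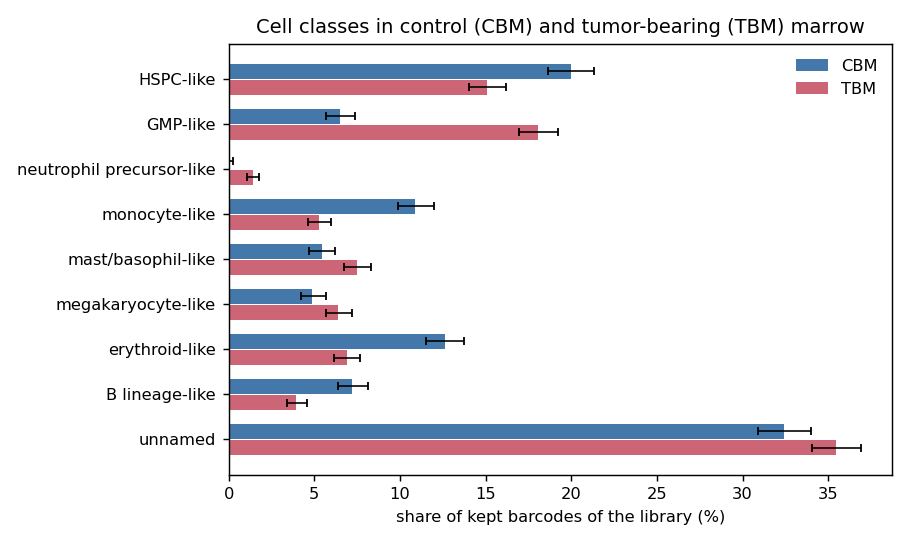
Share of kept barcodes (x axis, percent of the library) in each cell class for CBM and TBM, 1 library each, with exact 95% binomial intervals as lines. The GMP-like share is 6.49% in CBM and 18.1% in TBM, and the neutrophil precursor-like share 0.0858% and 1.41%.

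The share of a class also hid changes inside it. Of the monocyte-like class, 334 CBM and 65 TBM barcodes lay in a cluster led by Klrb1f, F13a1 and Irf8, here the early monocyte cluster, and 47 and 163 lay in a cluster led by Chil3, Fn1, Vcan and Lyz2, here the late monocyte cluster. B lineage-like barcodes fell into a Vpreb1, Igll1 and Lef1 cluster, 184 in CBM and 30 in TBM, and a Ly6d, Iglc3 and Spib cluster, 68 and 142. The erythroid-like class had 335 and 151 barcodes in an early cluster led by Car1 and 106 and 148 in a late cluster led by Slc4a1. The immunoglobulin genes Igkc, Jchain and Igha stand beside Car1 among the leading genes of the early cluster, but Jchain and Igha had UMIs in 1 CBM and 2 TBM barcodes of it and Igkc in 2 and 5. Mast or basophil-like barcodes lay in a Prss34, Mcpt8 and Fcer1a cluster, 112 and 272, and a Gzmb and Scin cluster, 78 and 53. In the monocyte-like and B lineage-like classes most CBM barcodes lay in one cluster and most TBM barcodes in the other.

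Across the whole pool, 39 of 6061 genes tested were called higher in TBM (0.643%) and 34 lower (0.561%). Of the 10 genes furthest up, Camp, the cathelicidin precursor, stood at 9.32 CPM in CBM and 200.4 CPM in TBM, a log2 ratio of 4.43 (4.30 to 4.55). Ngp, neutrophilic granule protein, was at 9.93 and 183.8 CPM (4.21, 4.09 to 4.33). S100a8 and S100a9, the calprotectin subunits, whose genes lie beside each other at chr3:90669071-90670034 and chr3:90692630-90695721 (RefSeq, GRCm38.p6), stood at 150.3 and 1653 CPM (3.46, 3.43 to 3.49) and at 75.0 and 1599 CPM (4.41, 4.37 to 4.46). Lcn2, a siderophore-binding protein of neutrophil granules, was at 13.2 and 210.4 CPM (3.999, 3.90 to 4.10). The chitinase-like protein Chil3 stood at 21.9 and 286.2 CPM (3.71, 3.63 to 3.79), and Wfdc21, a secreted WAP-domain protein, at 19.2 and 147.9 CPM (2.95, 2.86 to 3.03).

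The TBM molecules of these genes came from different classes. The 61 neutrophil precursor-like barcodes held 95.6% of the Camp UMIs of TBM, 96.9% of those of Ngp, 76.9% of S100a9, 59.4% of S100a8 and 42.5% of Lcn2. Monocyte-like barcodes held 64.9% of the Chil3 UMIs, and GMP-like barcodes held 61% of those of Wfdc21 and 24.8% of those of Lcn2. On the control side the levels rested on very few cells, with 1 barcode holding 89.5% of the 551 Camp UMIs of CBM, 83.1% of those of Ngp and 47.6% of those of S100a9. The mast and basophil protease Prss34 was at 224.4 and 744.2 CPM (1.73, 1.70 to 1.76), with 97.6% of its TBM UMIs in mast or basophil-like barcodes. Prg2, the eosinophil major basic protein, was at 11.6 and 111.8 CPM (3.26, 3.15 to 3.38), and 75.9% of its TBM UMIs lay in an unnamed cluster that also expressed Flt3 and Cd34. One barcode of that library held 20.2% of them. Dmkn was at 26.7 and 95.4 CPM (1.84, 1.76 to 1.92), with 59.1% of TBM UMIs in GMP-like barcodes.

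Genes lower in the pool included lymphoid, monocytic and antigen-presentation genes. Ebf1, a B lineage transcription factor, stood at 120.1 and 33.8 CPM and the B lineage marker Vpreb3 at 114.2 and 32.2 CPM (both -1.83), with 96.1% and 96% of their CBM UMIs in B lineage-like barcodes. Apoe, apolipoprotein E, was at 426.4 and 126.5 CPM (-1.75, -1.79 to -1.72). Irf8, a factor of monocyte and dendritic commitment, was at 302.5 and 117.4 CPM (-1.37, -1.40 to -1.33), and 42.8% of its CBM UMIs lay in monocyte-like barcodes. Lst1, a leukocyte-specific transcript, was at 88.5 and 30.4 CPM (-1.54, -1.61 to -1.47), and H2-Q7, a nonclassical MHC class I gene, at 174.1 and 71.4 CPM (-1.29, -1.33 to -1.24). Near-identical copies make the H2-Q genes hard to tell apart by read, so their single values are uncertain. Lsp1 (133.2 and 60.8 CPM), Ahnak (100.8 and 46.6 CPM), Clec2d (82.9 and 38.6 CPM) and the galectin Lgals1 (664.5 and 318.3 CPM) were also lower, with ratios from -1.13 to -1.06. Of the 10 named genes on this side, Lsp1, Ahnak and Clec2d missed the 2-fold threshold when each barcode was thinned to 2000 UMIs, at -0.94, -0.997 and -0.89.

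To hold the class make-up fixed, the CPM of each of 7 classes was averaged with the same class weights for both libraries; the make-up of clusters inside a class was not held fixed. In this class-standardised comparison 28 of 6040 genes were called higher (0.464%) and 6 lower (0.0993%), marker genes left out. Of the 30 called higher in the pool that are no markers, 13 were also called here, 43.3% of the pool calls and 46.4% of the standardised ones. On the lower side 6 of 29 pool calls remained, 20.7% of them and 100% of the standardised calls. These 6 were Myl10, Apoe, Lst1, H2-Q6, H2-Q7 and the lymphoid polymerase Dntt. Ebf1 and Vpreb3 are markers that define the B lineage-like class, so their standardised values are tied to its fixed weight and are given as a description. Ebf1 stood at 116.6 and 92.5 CPM at fixed weights (-0.33, -0.40 to -0.27) and Vpreb3 at 111.1 and 87.6. Lsp1 went to -0.04 (-0.11 to 0.03), Ahnak to 0.41 and Irf8 to -0.67. Inside single clusters, however, Lsp1 was lower in all 10 clusters where its mean was at least 20 CPM (-0.93 to -0.20, median -0.55), Irf8 in 10 of 10 (median -1.11) and Ahnak in 3 of 4 (median -0.26). The standardised values therefore do not show these genes to be unchanged inside cells. Such cluster counts, here and below, take clusters with at least 50 barcodes in each library, which leaves out the late monocyte and Vpreb1 clusters. The 7 classes leave out the unnamed clusters, and 1 of these, led by Cd74 and H2-Aa with 227 CBM and 62 TBM barcodes, held 34.8% of the Lsp1, 49.2% of the Ahnak and 22.7% of the Irf8 UMIs of CBM.

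Among genes with a mean of at least 50 CPM and 1 direction in every class where they were measured, immunoglobulin and marker genes left out, the furthest up at fixed weights were Lcn2 (11.5 and 142.6 CPM, 3.64), S100a9 (60.1 and 535.1 CPM, 3.16) and S100a8 (257 and 890.7 CPM, 1.79). The lysosomal thiol reductase Ifi30 (1.63), the protease Ctsc (1.42) and the galectin Lgals3 (1.22) were also among them. Called genes outside that rule included the lower-level Vldlr (1.96) and Socs3 (9.54 and 35.8 CPM, 1.91), and Serpina3g (40.3 and 115.8 CPM, 1.52), which was lower in erythroid-like barcodes. In the pool, Lgals3 was at -0.40, and its standardised value was carried by monocyte-like barcodes, at 425.7 and 1139 CPM, where the early and late clusters trade places. Lgals3 stood at 0.08 and Ifi30 at 0.77 when classes were built on variable genes. The chemokine Ccl6 was called higher at 1.36 but turned to -0.70 with those classes. Of broader reach were Skil, a SMAD repressor, at 33.8 and 84.2 CPM (1.32, 1.23 to 1.41), and the immediate-early gene Ier3 at 149.5 and 335.2 CPM (1.16, 1.12 to 1.21). Haptoglobin, Hp, was at 144.5 and 330.8 CPM (1.19, 1.14 to 1.25). Its level was highest in monocyte-like barcodes, at 316.8 and 1019 CPM, where the early and late clusters trade places. Apoe kept its size, at 414.1 and 124 CPM (-1.74, -1.78 to -1.70), and H2-Q7 was at 191.3 and 85.2 CPM (-1.17, -1.22 to -1.11).

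**Figure D2:**
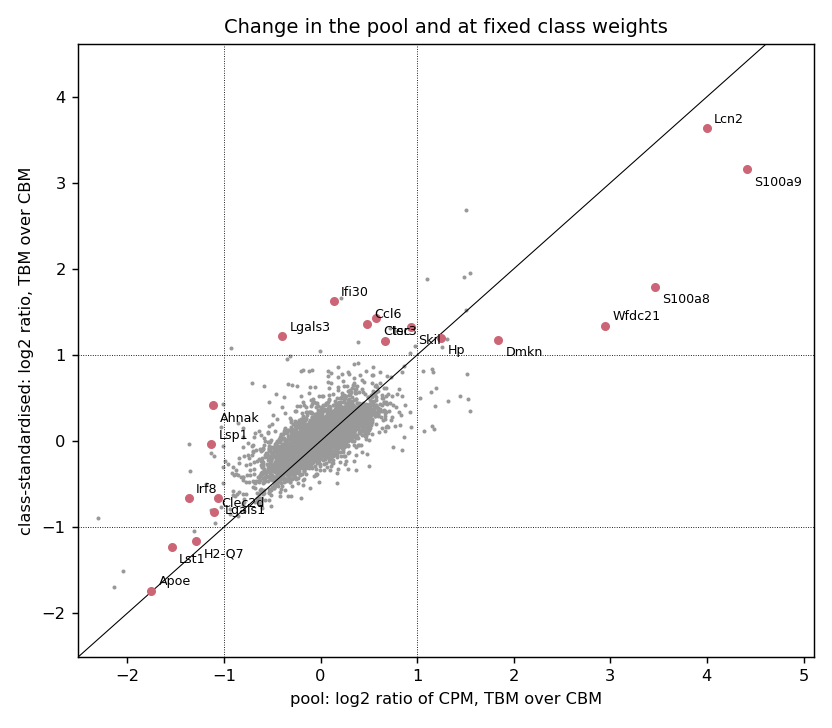
Each point is a gene of at least 20 mean CPM that is no marker, placed by its log2 ratio of TBM over CBM in the pool (x axis) and at fixed class weights (y axis); the solid line marks equal values and the dotted lines 2-fold. Apoe lies on the line at -1.75 and -1.74, and Lgals3 is below 0 in the pool and above 1 at fixed weights.

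Calprotectin was examined class by class because its genes filled the upper end of both comparisons. S100a9 stood at 192.5 CPM in control and 676.8 CPM in tumor-bearing GMP-like barcodes (1.81, 1.72 to 1.91), and at 11.6 and 1655 CPM in monocyte-like barcodes (7.15, 6.89 to 7.43). The early monocyte cluster went from 2.68 to 25.4 CPM and the late one from 116.8 to 2366 CPM, so the class ratio is larger than either cluster's own, 3.24 and 4.34. In HSPC-like barcodes S100a9 was at 7.59 and 50.7 CPM, in mast or basophil-like ones at 8.11 and 59.8, in megakaryocyte-like ones at 4.16 and 24.96, in B lineage-like ones at 10.5 and 142.8 and in erythroid-like ones at 5.07 and 130.2. One TBM barcode held 73.7% of the 650 UMIs of S100a9 in the erythroid-like class, and without it the ratio was 2.93 and no longer called.

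Free RNA moved with these values. It held S100a8 at 379.1 and 2405 CPM and S100a9 at 139.7 and 2174 CPM. With every barcode thinned to 2000 UMIs, 4.03% of control and 25.7% of tumor-bearing B lineage-like barcodes, which should lack the gene, had an S100a9 UMI (unthinned 6.35 and 43.0%, median depths 4888 and 3410 UMIs). The thinned TBM shares were 9.71% in HSPC-like, 11.1% in mast or basophil-like, 7.66% in megakaryocyte-like and 10.1% in erythroid-like barcodes, all below that of the B lineage-like class, so no expression is read from them. The part of free RNA in these values was not measured, and the subtraction of a set 10% of UMIs given at the end assumes it. The monocyte-like share was 29.5% (23.7 to 35.9%) and the GMP-like share 31.7% (28.4 to 35.1%), and both overlap the interval of the B lineage-like class (19.4 to 33.0%). The monocyte-like level of 1655 CPM came from the late cluster, at 2366 CPM. The early cluster stood at 25.4 CPM, below the 142.8 CPM of B lineage-like barcodes.

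Lcn2 was less spread. It stood at 22.6 and 182.3 CPM in GMP-like (3.01, 2.75 to 3.29), 20.03 and 421 CPM in monocyte-like (4.39, 4.19 to 4.61) and 20.8 and 182 CPM in mast or basophil-like barcodes (3.13, 2.67 to 3.62). In TBM, HSPC-like barcodes held 5.92 CPM, erythroid-like 7.21, megakaryocyte-like 3.55 and B lineage-like 13.8, against 180.4 CPM in free RNA. Lcn2 was higher in both GMP-like clusters (2.98 and 3.05) and in both monocyte-like clusters (2.93 and 2.92). Of the mast or basophil-like clusters, the Prss34 one held 50.7 and 228.3 CPM and the Scin one 2.45 and 15.5 CPM.

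**Figure D3:**
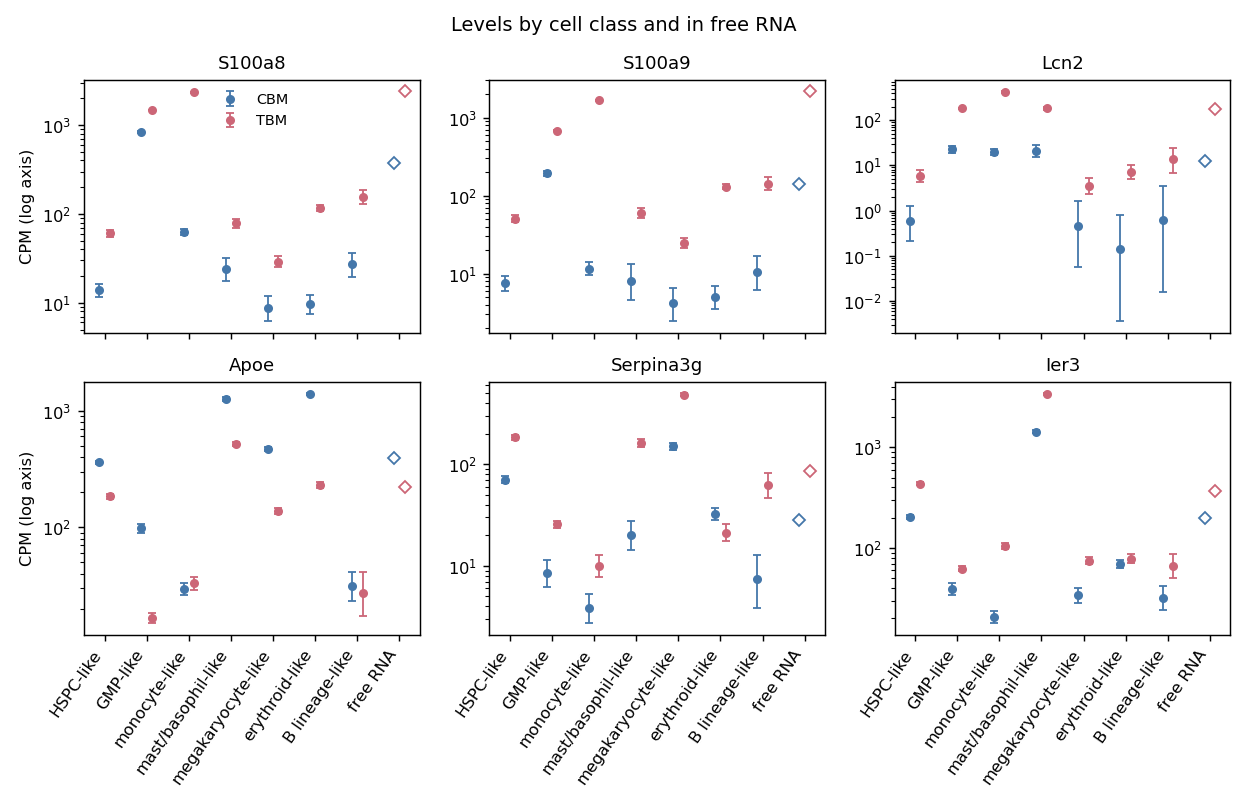
Level of 6 genes (y axis, CPM, log axis) in each of 7 cell classes for CBM and TBM, with exact 95% Poisson intervals as lines, and in free RNA as open diamonds with no interval. S100a9 is higher in TBM in every class and in free RNA, whereas Serpina3g is lower in TBM in the erythroid-like class alone.

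Looking for changes shared by lineages, 18 genes were called higher and 14 lower in at least 3 of the 7 classes, and 23 genes were called higher in one class and lower in another. The share called in each class is given below with that class. Of the 4084 genes tested in all 7 classes, 202 had a positive ratio in all and 284 a negative one in all. S100a9 was called higher in 6 classes, S100a8 and Ier3 in 5 and Serpina3g in 4. For S100a9 4 of the 6 classes, and for S100a8 4 of the 5, are the HSPC-like, mast or basophil-like, erythroid-like and B lineage-like ones, in which no expression is read. The erythroid-like call of S100a9 is lost without its top barcodes. The thinned TBM shares with an S100a8 UMI were 15.1% in HSPC-like, 15.7% in mast or basophil-like and 12.8% in erythroid-like barcodes, all below the 35.1% of the B lineage-like class. Lcn2, Skil, S100a4, S100a6, E2f2, Ifitm1, Mt1, Hp, Slc7a5, Cirbp, Socs3, Emilin2, Gda and Pim2 were called in 3. E2f2 was measured in 6 clusters large enough to compare, higher in 4 and lower in 2, with a ratio of at most 0.78. Its ratios in the monocyte-like (1.51), mast or basophil-like (1.14) and erythroid-like classes (1.11) exceed that of each of these clusters.

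Serpina3g, a cytokine-inducible serine protease inhibitor, stood at 70.5 and 183.5 CPM in HSPC-like barcodes (1.38, 1.25 to 1.51) and at 149.8 and 483.7 CPM in megakaryocyte-like ones (1.69, 1.57 to 1.81). It was at 20.3 and 161.5 CPM in mast or basophil-like barcodes (2.99, 2.53 to 3.49) and at 7.39 and 62.6 CPM in B lineage-like ones (3.08, 2.15 to 4.13), beside 28.4 and 85.6 CPM in free RNA. The share of thinned HSPC-like barcodes with a UMI was 13.3% (10.9 to 16.1%) and 29.1% (25.7 to 32.8%), against 51.6 and 75.1% unthinned, so the rise was spread over cells. In thinned megakaryocyte-like barcodes the share was 20.6 and 52.2%, and in thinned erythroid-like barcodes it was 5.92 and 5.39%. Erythroid-like barcodes held 32.5 and 21.2 CPM (-0.62), the only class of the 7 with less in TBM. That class mixes its early and late clusters in different parts. Among the 10 clusters large enough to compare with a mean of at least 20 CPM, the lowest Serpina3g ratio was -0.50.

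Socs3, the feedback inhibitor of STAT3 signaling, stood at 28.1 and 100.3 CPM in HSPC-like barcodes (1.84, 1.64 to 2.03), 7.10 and 37.1 CPM in mast or basophil-like ones (2.38, 1.59 to 3.30) and 24.9 and 65.4 CPM in megakaryocyte-like ones (1.39, 1.09 to 1.71). In the other 4 classes its mean was below 20 CPM. Ifitm1, an interferon-induced membrane protein, was at 47.2 and 274.2 CPM in GMP-like barcodes (2.54, 2.36 to 2.73), 744.8 and 1551 CPM in HSPC-like ones (1.06, 1.02 to 1.10) and 75.5 and 190.9 CPM in megakaryocyte-like ones (1.34, 1.16 to 1.52). In erythroid-like barcodes it was at 656.5 and 391.1 CPM and in mast or basophil-like ones at 3235 and 2849 CPM, both lower in TBM without reaching 2-fold. The erythroid-like ratio of -0.75 was further down than that of either of its clusters. Across 15 clusters the lowest Ifitm1 ratio was -0.44. Ifitm1 in free RNA was at 403.6 and 700.1 CPM.

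The letters TTCNNNGAA, a palindrome bound by STAT dimers, occurred in the 250 bases before a RefSeq transcript start of 3 of the 15 genes with a window among the 18 called higher in at least 3 classes, namely Socs3, Serpina3g and Emilin2. All genes held it in 8.13% (2197 of 27025), and 0 of 9 with a window among the 14 called lower did. The motif reads the same on both strands. The Socs3 and Serpina3g windows are printed because they hold TTCNNNGAA and both genes were called higher in HSPC-like and megakaryocyte-like barcodes. The windows come from RefSeq on GRCm38.p6, the build of the authors' mm10 alignment. They run 5′ to 3′ on the gene's strand, and capitals mark the TTCNNNGAA match. The Socs3 window is chr11:117969367-117969616 on the minus strand with the match 154 to 146 bases before the start that the promoter table uses, which lies inside the RefSeq gene span of chr11:117966079-117970336, so another annotated start lies further upstream, and the Serpina3g window is chr12:104235897-104236146 on the plus strand with the match 33 to 25 bases before it. A match is a description of letters and no measurement of binding.
Socs3: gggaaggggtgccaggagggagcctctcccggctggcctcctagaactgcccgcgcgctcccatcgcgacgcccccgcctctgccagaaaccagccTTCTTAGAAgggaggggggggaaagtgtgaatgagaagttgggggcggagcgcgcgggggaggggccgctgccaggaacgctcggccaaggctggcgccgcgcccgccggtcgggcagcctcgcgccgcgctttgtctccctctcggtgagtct
Serpina3g: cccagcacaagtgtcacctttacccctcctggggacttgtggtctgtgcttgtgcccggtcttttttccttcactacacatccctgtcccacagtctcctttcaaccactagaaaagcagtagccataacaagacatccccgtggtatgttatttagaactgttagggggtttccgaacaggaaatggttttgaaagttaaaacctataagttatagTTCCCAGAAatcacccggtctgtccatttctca

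Ier3 was called higher in HSPC-like (203.2 and 435.1 CPM), monocyte-like (20.6 and 104.7), mast or basophil-like (1425 and 3388), megakaryocyte-like (33.9 and 74.9) and B lineage-like barcodes (32.0 and 66.4), and its ratio was positive in 15 of 15 clusters large enough to compare. Erythroid-like barcodes held 69.4 and 78.3 CPM (0.17, -0.02 to 0.37). Skil rose in HSPC-like (87.9 and 219.5 CPM), megakaryocyte-like (35.6 and 158.5) and monocyte-like barcodes (10.8 and 35.4). The metallothionein Mt1 was at 12.8 and 44.9 CPM in HSPC-like barcodes (1.80) and 98.8 and 225.9 CPM in megakaryocyte-like ones (1.19). Its ratio was positive in 15 of 15 clusters large enough to compare. Cirbp, the cold-inducible RNA-binding protein, was at 90.1 and 200.2 CPM in HSPC-like (1.15), 38.1 and 98.4 in GMP-like (1.37) and 75.2 and 194.2 in B lineage-like barcodes (1.37). Its relative Rbm3 had ratios of 0.37 to 0.83 in all 7 classes, none of them called, and both were positive in 15 of 15 such clusters. Cirbp and Rbm3 respond to temperature during handling as well as in the body, and which of these applies was not tested.

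Lower in at least 3 classes were Apoe, Igfbp4, Lst1, H2-Q4 and H2-Q7, each in 4, and, among others, Ifi203, Slpi, Clec2d, Lgals1, H2-Q6, the melanocortin receptor Mc5r and the transcripts 4930519L02Rik and AC149090.1, each in 3. Apoe was at 1381 and 229.3 CPM in erythroid-like (-2.59, -2.68 to -2.50), 98.1 and 16.7 CPM in GMP-like (-2.55, -2.74 to -2.36) and 468.4 and 137.7 CPM in megakaryocyte-like barcodes (-1.77, -1.88 to -1.66). The share of thinned erythroid-like barcodes with an Apoe UMI was 66.1% in CBM and 28.3% in TBM, against 75.3 and 46.2% unthinned. In HSPC-like barcodes Apoe was at 360.2 and 184.5 CPM (-0.97, -1.05 to -0.88), and it was low in both libraries in monocyte-like (29.7 and 33.2 CPM) and B lineage-like barcodes (31.4 and 27.6 CPM). The ratio was negative in 15 of 15 clusters large enough to compare. These leave out the late monocyte cluster, and the monocyte-like class as a whole had a ratio of 0.16 (-0.10 to 0.41). The mast or basophil-like ratio of -1.29 was larger than that of either of its clusters. The Prss34 cluster held 390.7 and 366.6 CPM (-0.09, -0.28 to 0.10) and the Scin cluster 1797 and 1064 CPM (-0.76, -0.87 to -0.64). Free RNA held Apoe at 395.4 and 219.7 CPM.

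H2-Q7 was lower in erythroid-like (259.7 and 61.3 CPM, -2.08), monocyte-like (46.6 and 10.96, -2.09), mast or basophil-like (212.5 and 58.7, -1.86) and GMP-like barcodes (112.9 and 32.2, -1.81), and stood at 226.8 and 235.5 CPM in B lineage-like ones (0.05, -0.21 to 0.31). H2-Q6 and H2-Q4 also had their highest ratios in the B lineage-like class (0.30 and 0.27), with H2-Q4 at 91.6 and 40.1 CPM in erythroid-like and 187.3 and 225.5 CPM in B lineage-like barcodes. Lst1 was lower in HSPC-like (109.2 and 43.2 CPM), GMP-like (52.3 and 25.01), mast or basophil-like (120.2 and 31.2) and erythroid-like barcodes (32.8 and 7.41). Lgals1 was at 319.5 and 51.1 CPM in erythroid-like (-2.65), 483.8 and 100.2 in B lineage-like (-2.27) and 371.4 and 167 in GMP-like barcodes (-1.15). The protease inhibitor Slpi was lower in GMP-like, monocyte-like and megakaryocyte-like barcodes and higher in the mast or basophil-like one (143.5 and 324.8 CPM, 1.18).

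**Figure D4:**
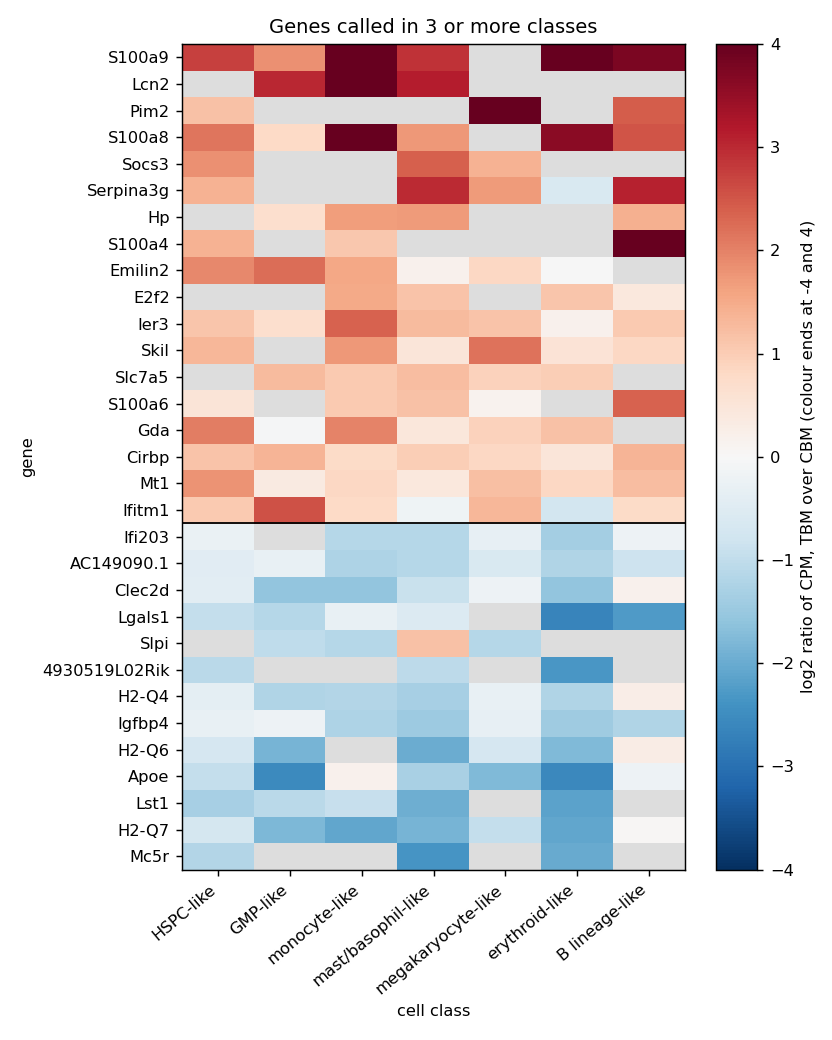
Log2 ratio of CPM, TBM over CBM (colour), of the 18 genes called higher (upper block) and 13 of the 14 called lower (lower block) in at least 3 classes, by cell class; grey marks a mean below 20 CPM. Serpina3g and Ifitm1 are below 0 in the erythroid-like class, and H2-Q7, H2-Q6 and H2-Q4 are at or just above 0 in the B lineage-like class.

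In HSPC-like barcodes, 34 of 6335 genes were called higher (0.537%) and 10 lower (0.158%). Among genes with a mean of at least 50 CPM, those furthest up beside Socs3, Serpina3g and Skil were Vldlr, a lipoprotein receptor, at 57.0 and 199.3 CPM (1.81, 1.67 to 1.94), and P-selectin, Selp, at 32.4 and 88.1 CPM (1.44, 1.26 to 1.64). Below that level, S100a9 (2.74), S100a8 (2.13), Gda (2.04), Emilin2 (1.93) and Mt1 (1.80) were also called higher, and no expression is read from the first pair. The IL-1 receptor Il1r1 was at 32.7 and 68.4 CPM (1.07), the adhesion molecule Icam1 at 35.6 and 72.0 CPM (1.02) and the transcription factor Cebpd at 12.6 and 28.2 CPM (1.16). At the lower end, Myl10, a myosin light chain, was at 165.8 and 41.8 CPM (-1.99, -2.16 to -1.82), Ighm at 85.6 and 33.6 CPM (-1.35, -1.55 to -1.15) and Dntt at 175 and 89.1 CPM (-0.97, -1.10 to -0.85), the last just short of 2-fold and past it at -1.13 with classes from variable genes. Of the lymphoid priming list 1 of 7 measured genes, Ighm, was called lower, with a median of -0.24. Ighm stood at 157.3 and 78.6 CPM in free RNA. The stem cell genes Hlf (469.5 and 395.8 CPM, -0.25), Mecom (85.1 and 85.6 CPM, 0.01) and Procr (27.2 and 32.3 CPM, 0.25) differed little.

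Among GMP-like barcodes 20 of 5279 genes were called higher (0.379%) and 14 lower (0.265%). Annexin A1, Anxa1, stood at 153.4 and 410.9 CPM (1.42, 1.32 to 1.53) and the kinase Pim1, a STAT target, at 50.8 and 133.2 CPM (1.39, 1.21 to 1.57). Both GMP-like clusters showed the changes of Ifitm1 (126.3 and 528.9, and 11.1 and 109.1 CPM), Pim1 (1.34 in each) and H2-Q7 (-1.72 and -2.02). Apoe was lower in both, from 236.8 to 25.8 and from 34.6 to 10.8 CPM. Slpi, at 186.3 and 93.0 CPM, was at the threshold (-1.002) and at -0.97 without its top barcodes. Cd52 was at 200.3 and 101.6 CPM (-0.98). The granule genes Mpo (2006 and 2368 CPM) and Elane (1634 and 2021 CPM) differed little in the pool, where the GMP-like share was 2.78-fold higher. The 7 GMP markers, which include both, summed to 7797 CPM in CBM and 12206.5 CPM in TBM there, with 2 of the 7 called higher.

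In monocyte-like barcodes 107 of 5749 genes were called higher (1.86%) and 59 lower (1.03%), and counts fell to 34 and 24 with classes from variable genes. Because the early cluster held most CBM and the late cluster most TBM barcodes, values within each are given. Pim1 was higher in both, from 67.4 to 309.7 CPM in the early and from 140.7 to 292.3 CPM in the late cluster. Wfdc21 went from 1.39 to 32.2 CPM in the early cluster and from 1 UMI to 255.3 CPM in the late one. Ms4a6d, a membrane protein of monocytes and macrophages, went from 9.10 to 56.1 and from 47.7 to 106.6 CPM. H2-Q7 was lower in both (-1.70 and -2.46). The progenitor transcription factors Sox4 and Myb were lower in the class, at 90.5 and 20.7 CPM (-2.13) and 268 and 92.1 CPM (-1.54), but in the late cluster they stood at 11.3 and 13.2 and at 65.3 and 69.1 CPM, with intervals that include 0. In the early cluster Sox4 was at 97.2 and 38.0 CPM (-1.35, -1.71 to -1.02). Bcl2 had ratios of -0.997 and -0.98 in the early and late clusters, Cd93 -1.20 and -0.38, and the class value of Serpinf1 was -1.26. Bcl3, Stat3 and the immediate-early genes Jun, Egr1 and Ier5 were called higher in the class, at ratios of 1.03 to 1.75. These are class values, which mix the early and late clusters in different parts. Stat3 had a ratio of at most 0.81 in 14 clusters large enough to compare, the late cluster not among them.

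Mast or basophil-like barcodes had 105 of 6045 genes called higher (1.74%) and 91 lower (1.51%), counts that rose to 386 and 405 with classes from variable genes. Furthest up among genes with a mean of at least 50 CPM were Egr2, Tnf, Lcn2 (3.13), Serpina3g (2.99) and Egr1. Tnf was at 12.7 and 128.7 CPM (3.34, 2.76 to 3.99), the chemokine Cxcl2 at 37.5 and 177 CPM (2.24, 1.89 to 2.61) and Egr1 at 361.6 and 1979 CPM (2.45, 2.34 to 2.57). Egr2, with 8 UMIs in CBM, was at 4.06 and 122.5 CPM (4.92, 3.92 to 6.14). Fosb (275.9 and 842.2 CPM), Ier2 (498 and 1185 CPM), Ier5 (61.9 and 166.3 CPM) and Icam1 (14.7 and 55.1 CPM) were also called. In the Prss34 cluster Tnf went from 14.7 to 157.6 CPM and Egr1 from 292.3 to 2357 CPM, and in the Scin cluster from 11.5 to 24.5 and from 404.1 to 619.8 CPM. Egr1, Fosb and Ier2 are also known to be induced while tissue is digested, and with classes from variable genes Egr1 stood at 0.42. That second value, like the counts of 386 and 405, compares different clusters, since 412 CBM barcodes of that class lay in a cluster led by Cd7 and Ccl4 and 221 TBM barcodes in one led by Prss34 and Mcpt8. Lower were Cd7 (95.8 and 6.18 CPM, -3.95), the actin-severing protein Scin (193.7 and 24.7 CPM, -2.97, but -1.85 within the Scin cluster, which held 78 CBM and 53 TBM barcodes, and 16.0 and 8.26 CPM in the Prss34 cluster with 112 and 272) and the integrin Itga4 (435 and 121.6 CPM, -1.84). Within clusters Cd7 stayed lower, at 202.2 and 7.54 CPM in the Prss34 cluster, as did Lst1 (-2.08 and -1.77) and H2-Q7 (-1.63 and -1.17), while Itga4 was at 0.32 in the Prss34 cluster and -0.99 in the Scin one.

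Megakaryocyte-like barcodes formed 1 cluster, with 23 of 6086 genes called higher (0.378%) and 24 lower (0.394%). Among the higher were the activation antigen Cd69 at 30.5 and 103.1 CPM (1.76, 1.49 to 2.04), Smad7, the inhibitor of TGF-beta signaling, at 24.9 and 81.4 CPM (1.71, 1.41 to 2.02) and Clca3a1 at 34.6 and 107.5 CPM (1.63, 1.38 to 1.90). The kinase Pim2 went from 9 UMIs, 2.08 CPM, to 40.4 CPM (4.28, 3.34 to 5.43). On the lower side, Tubb2a was at 85.2 and 21.6 CPM (-1.98), with 34.7% of its CBM UMIs in 1 barcode, and thrombospondin, Thbs1, at 106.4 and 28.8 CPM (-1.89), with 56.7% of its TBM UMIs in 1 barcode. The histone gene Hist1h2bc was at 159.98 and 56.0 CPM (-1.51) and Gnaz, a G protein subunit of platelets, at 72.9 and 27.9 CPM (-1.38).

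In erythroid-like barcodes 30 of 5610 genes were called higher (0.535%) and 116 lower (2.07%). Several higher calls came from single barcodes. Ighm stood at 9.99 and 503 CPM, but 1 TBM barcode held 98.6% of its 2512 UMIs, and without the top barcodes the ratio was -0.40. Jchain, at 31.7 and 192.2 CPM, turned to -1.33 with classes from variable genes. The metallothionein Mt2 was at 74.3 and 190.6 CPM (1.36, 1.204 to 1.52), asparagine synthetase, Asns, at 52.2 and 117.2 CPM (1.17, 0.98 to 1.36) and ferrochelatase, Fech, which closes heme synthesis, at 161.6 and 323.6 CPM (1.002, 0.89 to 1.11). The early cluster went from 335 to 151 barcodes and the late one from 106 to 148, so class values mix the clusters in different parts. In the early and late clusters the ratios were 1.25 and 0.20 for Fech, 1.63 and 0.22 for Asns and 1.72 and 1.09 for Mt2. On the lower side were the myeloid lysozyme Lyz2 at 148.7 and 18.4 CPM (-3.01), the pseudokinase Trib2 at 95.6 and 27.6 CPM (-1.79), Lgals1, Apoe and H2-Q7. Lyz2 stood at -3.41 in the early and -0.29 in the late cluster and Trib2 at -1.45 in the early one, with 0 and 5 UMIs in the late one. The interferon-inducible antigen-processing genes Psmb9 (138.9 and 51.9 CPM, -1.42), Tap1 (91.9 and 38.5 CPM, -1.26) and Psmb8 (231.8 and 108.1 CPM, -1.10) were lower as well. The Psmb9 difference lay mostly in the early cluster, where Psmb9 was at 172.3 and 73.5 CPM, against 31.03 and 21.96 CPM in the late cluster. H2-Q7 was lower in both (-1.77 and -1.94), and Apoe too (-2.23 and -1.08).

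In the B lineage-like class, whose 252 and 172 barcodes were the shallowest, 167 of 6108 genes were called higher (2.73%) and 232 lower (3.8%). The 2 clusters changed places, so each is given. Dntt was at 704 and 47.6 CPM in the class and at 867.6 and 130.8 CPM in the Vpreb1 cluster (-2.73, -3.24 to -2.26), with 1 UMI per library in the other. Lef1 was at 599.2 and 162.6 CPM in the Vpreb1 cluster and at 65.0 and 60.2 CPM in the Ly6d cluster, and Arpp21 at 178.1 and 16.3 CPM in the class (-3.45). Nav2 went from 22.8 to 127.2 CPM in the Vpreb1 cluster and from 100.8 to 407.5 CPM in the Ly6d cluster, and Cmah, which hydroxylates sialic acid, was higher in both (1.85 and 1.17). Lgals1 was lower in both (-2.47 and -1.48), as were the histone gene Hist1h2ab (-3.02 and -2.47) and the mitotic kinase Cdk1 (-1.43 and -2.03). S100a4 was at 14.8 and 260.6 CPM, with 52.4% of its TBM UMIs in 1 barcode. The TBM values of the Vpreb1 cluster rest on 30 barcodes.

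Gene lists, drawn up with earlier results of these libraries known, were read by counts and medians. Of all genes, 0.643% were called higher and 0.561% lower in the pool, and 0.464% and 0.0993% at fixed weights. Calprotectin and neutrophil effector genes had 7 of 12 measured members called higher in the pool and 1, Lyz2, lower, and 5 of 10 higher at fixed weights, with medians of 1.43 and 0.97 against -0.01 and 0.03 over all genes. Of the STAT3 and G-CSF response list, Lcn2, Socs3 and Serpina3g were called higher of 9 measured both in the pool and at fixed weights (medians 0.33 and 0.51). By class, 5 of 10 were called in HSPC-like barcodes (Il1r1, Ifitm1, Socs3, Serpina3g, Cebpd), 4 of 9 in monocyte-like, 3 of 7 in GMP-like, 3 of 6 in megakaryocyte-like, 3 of 8 in mast or basophil-like, 2 of 6 in B lineage-like and 0 of 5 in erythroid-like ones, where the median was -0.62. The shares of all genes called higher in these classes, in the same order, were 0.537, 1.86, 0.379, 0.378, 1.74, 2.73 and 0.535%. The erythroid-like values mix the early and late clusters in different parts. Lcn2, Socs3, Serpina3g and Ifitm1 had been seen to differ before the list was made, so the list is not independent of these counts. NF-kB targets had no call in the pool, 2 of 7 at fixed weights (Icam1, Ier3) and 4 of 12 in mast or basophil-like barcodes (Cxcl2, Icam1, Tnf, Ier3).

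Of the interferon-stimulated genes, 2 of 10 measured in the pool were called lower, Ifi27l2a among them, against 0.561% of all genes, 9 had a negative ratio and the median was -0.33. At fixed weights 0 of 11 were called and the median was -0.22, and the erythroid-like median was -0.69 with 2 of 11 called lower, Ifi47 among them, against 2.07% of all genes. In megakaryocyte-like barcodes 4 were positive and 4 negative (median 0.02), and in HSPC-like ones 7 and 10, with none called in either. Their summed level was higher in TBM in HSPC-like (1783 and 1886 CPM), megakaryocyte-like (1337 and 1528 CPM) and mast or basophil-like barcodes (2171 and 2521 CPM), the last with 2 of 10 called lower. MHC class I presentation genes had a negative ratio in 10 of 11 in the pool and at fixed weights (medians -0.38 and -0.27), but H2-Q7 alone was called. In erythroid-like barcodes 11 of 11 were negative with 4 called lower, against 2.07% of all genes. Immediate-early genes had 0 of 15 called in the pool (median -0.04) and at fixed weights (0.41). In monocyte-like barcodes 3 of 15 were called higher and in mast or basophil-like ones 4 of 14, against 1.86 and 1.74% of all genes. Ratios were positive in 14 of 15 at fixed weights, in HSPC-like and in megakaryocyte-like barcodes. In erythroid-like barcodes 12 of 13 were negative, and in GMP-like ones 4 were positive and 5 negative. Lymphoid priming genes had Lsp1 and Dntt called lower of 7 in the pool (median -0.71), and Dntt of 9 at fixed weights (-0.04). S phase and mitotic genes had 0 of 18 called each in the pool. In B lineage-like barcodes 6 of 18 S phase and 3 of 18 mitotic genes were called lower, against 3.8% of all genes. The 2 clusters of that class changed places between the libraries, so these values mix them in different parts. Mitotic genes had positive ratios in 18 of 18 at fixed weights (median 0.35, none called) and in GMP-like (0.60, none called), monocyte-like (0.52, Plk1 called higher) and erythroid-like barcodes (0.48, none called), and in 16 of 16 in mast or basophil-like ones (0.48, Mki67 and Birc5 called higher). In HSPC-like barcodes 6 mitotic genes were positive and 9 negative (median -0.01), and in megakaryocyte-like ones 7 and 11 (-0.06). S phase genes were negative in 15 of 17 in HSPC-like and 15 of 18 in megakaryocyte-like barcodes, with none called, and positive in 17 of 18 in erythroid-like ones. Of the S phase genes, Rrm2 was called higher in monocyte-like and mast or basophil-like barcodes. Heat shock, ATF4, glycolysis, NRF2, cholesterol, iron, MHC class II, stem cell factor, cytokine receptor and myeloid checkpoint lists had no call in the pool or at fixed weights. Homing and adhesion genes had 1 of 9 called lower in the pool (Itgb7), and metallothionein genes 1 of 3 higher (Mt1), with Mt2 called of 4 at fixed weights. Heme and globin genes had 0 of 10 called in both. In mast or basophil-like barcodes 4 of 8 were called higher, all globins, against 1.74% of all genes. There 1 TBM barcode held 75.8% of the Hbb-bs UMIs, and its part in the other calls was not tested. Plasma cell genes had Igkc called higher, of whose TBM UMIs in the pool 1 erythroid-like barcode held 53.8%, and mammary epithelial genes had no call in the pool or at fixed weights, with Krt18 called lower in mast or basophil-like barcodes (-1.14).

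**Figure D5:**
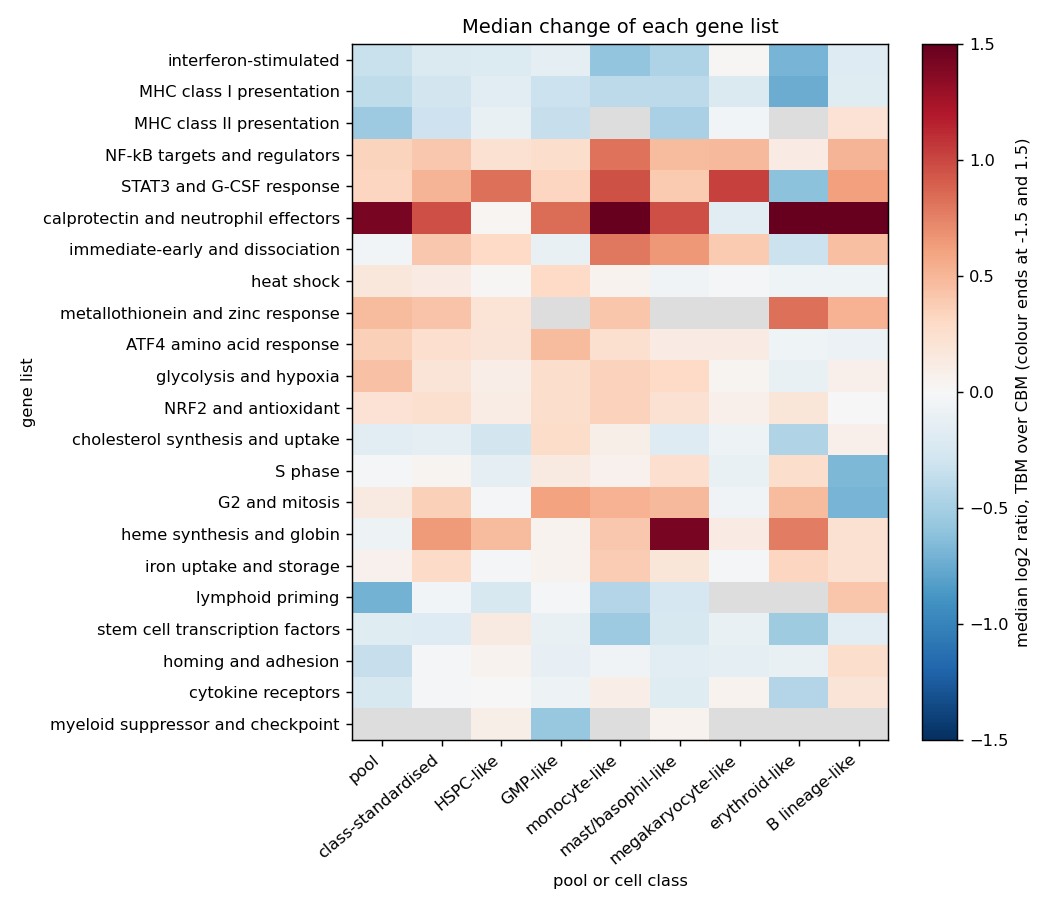
Median log2 ratio, TBM over CBM (colour), of the measured members of each gene list (rows) in the pool, at fixed class weights and in each class (columns); grey marks fewer than 3 measured members. The STAT3 and G-CSF list is above 0 in every column but the erythroid-like one, where it is -0.62. That class mixes its early and late clusters in different parts.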

How the data were processed

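Cells of the 2 marrow libraries were sequenced with 10x Genomics 3′ v3.1 chemistry on a NovaSeq6000, and the authors deposited raw UMI counts of all barcodes against mm10 with 32285 features. Those counts were used as deposited; the background subtraction and filters that the study's methods describe are not in them. Members and gene lists were chosen with earlier results of these data known. Markers (121 genes of 14 cell types) were log-normalised (scaling factor 10000), centred, reduced to 30 principal components and clustered with Leiden at resolution 1.2 and 20 neighbours. This unscaled version was chosen, and clusters were named, after values were seen. Ratios carry exact conditional 95% intervals, and a level of 0 UMIs was set to 3 UMIs for a ratio. Class weights were the mean UMI shares of the 7 classes. Genes named were the 10 furthest each way in the pool, 12 at fixed weights and 5 per class, at 50 CPM or more; the others were chosen after their values were seen. Gene symbols are the deposited ones. Doublets were scored with Scrublet, which called 39 and 50 barcodes; none was removed in the main values. The calling script was tested on simulated counts. Results for a few genes are not reported here.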

Additional observations from a re-analysis of the deposited data

How the results depend on the processing

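No paired analysis was possible because each group has 1 library. Thinning each barcode to 2000 UMIs raised the counts of genes called higher and lower, to 55 and 27 in HSPC-like, 117 and 47 in GMP-like, 208 and 135 in monocyte-like, 188 and 230 in mast or basophil-like, 108 and 184 in megakaryocyte-like and 130 and 248 in erythroid-like barcodes, and to 13 lower at fixed weights; fewer UMIs per gene are left by construction. In the pool, calls were 13 and 6 at a mean of at least 100 CPM and 456 and 854 with no filter, and 59 were lower with mitochondrial, ribosomal protein and hemoglobin genes left out of the total. With classes from variable genes, calls were 14 and 12 at fixed weights, 34 and 24 in monocyte-like, 386 and 405 in mast or basophil-like and 10 and 35 in erythroid-like barcodes. Log2 share ratios were then -0.21 for HSPC-like, 1.27 for GMP-like, -0.76 for monocyte-like, -0.55 for erythroid-like and, reversed, -1.26 for mast or basophil-like barcodes. Jchain (erythroid-like) reversed to -1.33 and Ccl6 (fixed weights) to -0.70. At 2000 genes or more, the share ratios were 0.76 for mast or basophil-like and -2.39 for B lineage-like barcodes. Standardising over single clusters, an alternative added after seeing the data, called 17 higher. Leaving out each gene's top barcode, also added, reversed Ighm in erythroid-like barcodes to -0.40. Subtracting 10% of UMIs by the free RNA profile, a set amount and no estimate, left 125 of the results checked the same, with 2 stronger and 1 weaker. The mast or basophil-like class of variable genes lay mostly in different clusters in the 2 libraries; the cause of the other shifts was not tested. Of the values for single genes, 650 kept direction and call, 32 lost the call, 3 gained it and 3 reversed.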

Other observations

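The largest unnamed cluster by CBM barcodes, with 336 barcodes of CBM and 183 of TBM and led by Ccl6, Ccl4 and Ccl3, is described here by genes chosen after their values were seen. Its median depth was 3808 UMIs in CBM and 4190 in TBM. Lif, leukemia inhibitory factor, a cytokine of the IL-6 family, was at 3.05 CPM in CBM and 212.8 CPM in TBM (log2 ratio 6.12, 4.74 to 8.02), and 0.300% and 20.3% of barcodes thinned to 2000 UMIs had a Lif UMI (0.60 and 28.4% unthinned). In thinned TBM barcodes that share was 2.16% in mast or basophil-like, 0.616% in HSPC-like and 0 in B lineage-like ones. The growth factor Hbegf stood at 9.15 and 201.4 CPM (4.46, 3.62 to 5.44), Tnf at 10.7 and 156.1 CPM (3.87, 3.07 to 4.78), Egr2 at 35.1 and 669.8 CPM (4.25, 3.82 to 4.72) and Cxcl2 at 110.6 and 402.9 CPM (1.86, 1.58 to 2.16). Serpina3g went from 1 UMI in CBM to 278.2 CPM in TBM.

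In the same cluster Apoe was at 396.7 and 33.99 CPM (-3.54, -4.16 to -2.99), the glutathione transferase Gstm1 at 1005 and 147.3 CPM (-2.77, -3.06 to -2.50) and Cd7 at 700.2 and 146 CPM (-2.26, -2.55 to -1.98). The cluster held 6 of the 8 mast or basophil markers above the other clusters but had none among its leading genes. When clusters were built on variable genes, barcodes with these leading genes separated by library, 412 of CBM and 11 of TBM in one cluster and 1 and 208 in another, so whether 1 kind of cell is compared here was not tested.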
